A study of Mus musculus with 12 samples.

Results

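The genes described here are 45 cell cycle genes of the mouse: the cyclin-dependent kinases and cyclins, their inhibitors, the Rb and E2F genes, the replication genes of S phase and the mitotic genes of G2/M. They were listed by symbol and matched to the Ensembl identifiers of the count files, 45 of 51912 genes listed, with 1 identifier for each symbol. By textbook role 13 were set down as G1 genes, 10 as S genes and 22 as G2/M genes. They were measured in 12 UMI RNA-seq libraries of rRNA-depleted RNA from cerebral cortex at embryonic day 15.5. The 6 mutants carried Emx1-Cre and a conditional mutation of Arid1a, which encodes a subunit of BAF, a chromatin remodelling complex. The 6 controls are labelled only as control, and the labels say nothing further of their alleles. Mutants 3 to 6 and controls 5 and 6 came from litter 2, and mutants 1 and 2 and controls 1 to 4 came from litter 1. Mutant 4 and controls 2 to 5 were male and the other libraries female, and every library is labelled as batch 1.

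Emx1-Cre acts in dorsal telencephalic progenitors and the cells born from them, so interneurons, blood vessels and other cells from outside that lineage keep the gene. Arid1a itself averaged 447 ± 51.0 CPM in the mutants and 510.0 ± 42.3 CPM in the controls (SD, n = 6 per group). On the log2 scale the fold change was -0.30 ± 0.0958 (SE), and an adjusted p of 0.277 by edgeR's quasi-likelihood test left it uncalled. A count over the whole gene does not show the loss of a single exon, and it checks the genotype labels only weakly.

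In the cortex at this stage, radial glia divide at the ventricle and intermediate progenitors divide in the subventricular zone, while the neurons they make have left the cycle. D cyclins bind Cdk4 or Cdk6 in G1, and these kinases phosphorylate Rb, which frees E2F factors to switch on the replication genes of S phase. The mitotic genes are switched on later, mainly through the MuvB complex with B-Myb and FoxM1, and their promoters often carry the cell cycle genes homology region, CHR, together with CCAAT boxes. In cortical progenitors, Ccnd2 is the D cyclin known for its passage down the basal process of radial glia, and the length of G1 is known to increase as neurogenesis proceeds.

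The shallowest library was mutant 1, with 643197 counts on genes, and the deepest mutant 3, with 3525121. Mutants 1, 2, 4 and 6 were the 4 shallowest libraries, between 643197 and 1070000, against 1476478 to 2815042 in controls. Levels are given as CPM scaled by TMM. Mutant 4, the 1 male mutant and the second shallowest, stood apart from the other mutants in the summed S genes, at 229 CPM against 356 to 402. Markers of cortical cells were detected: 9 of 12 radial glia markers, 7 of 8 of intermediate progenitors and 9 of 10 of excitatory neurons passed the filter on low counts. None of 7 microglial and none of 6 meningeal markers passed it, and their sums reached at most 17.6 and 37.6 CPM in any library. Protein-coding genes whose exons lie within the span of a same-strand gene, clear of its exons, were at 0 in 99.5% of 184 cases. For genes placed likewise inside an opposite-strand gene the share was 39.8% of 462, and for genes with no other gene in their exons 28.0% of 14436. For genes wholly inside exons of a same-strand gene it was 37.5% of 80, and inside exons of an opposite-strand gene 57.6% of 33, so these classes do not all follow 1 counting rule. The counting mode is not given in the sources used here, and a level is taken to include introns as well as exons, without that being settled.

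Promoter windows from RefSeq (GRCm38.p6), running 250 bases before to 50 after the start, were available for 37 of the 45 genes, and 6 are shown. Cdk6 is shown as the gene called between genotypes, and Hmgb2, Cenpe and E2f3 as the genes called between litters. Mcm7 and Mki67 are shown as abundant S and G2/M genes with E2F and CHR motifs. Rrm1, the most abundant S gene, had 2 CCAAT boxes and no E2F match in its window, which is not shown. Capitals mark matches, on either strand, to the E2F motifs TTTCGCGC and TTTGGCGC, the CHR motif TTTGAA and the CCAAT box, where overlapping matches run together.
Cdk6, chr5:3343643-3343942, plus strand: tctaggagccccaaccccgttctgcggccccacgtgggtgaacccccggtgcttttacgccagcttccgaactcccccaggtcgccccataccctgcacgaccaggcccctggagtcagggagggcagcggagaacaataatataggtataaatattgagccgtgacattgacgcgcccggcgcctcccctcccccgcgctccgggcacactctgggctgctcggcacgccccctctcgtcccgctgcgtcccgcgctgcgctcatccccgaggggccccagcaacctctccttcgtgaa
Hmgb2, chr8:57511593-57511892, plus strand: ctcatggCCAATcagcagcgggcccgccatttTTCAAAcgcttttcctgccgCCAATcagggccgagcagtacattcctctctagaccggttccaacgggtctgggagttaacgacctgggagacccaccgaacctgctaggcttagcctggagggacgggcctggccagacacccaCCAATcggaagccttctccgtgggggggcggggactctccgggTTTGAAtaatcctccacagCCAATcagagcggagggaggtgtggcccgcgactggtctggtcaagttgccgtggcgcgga
Cenpe, chr3:135212313-135212612, plus strand: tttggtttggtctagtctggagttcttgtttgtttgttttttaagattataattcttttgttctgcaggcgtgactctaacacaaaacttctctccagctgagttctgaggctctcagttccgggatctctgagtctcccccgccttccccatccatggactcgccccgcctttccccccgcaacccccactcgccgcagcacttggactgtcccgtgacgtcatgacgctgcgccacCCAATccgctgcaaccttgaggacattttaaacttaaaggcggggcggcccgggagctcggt
E2f3, chr13:29986014-29986313, minus strand: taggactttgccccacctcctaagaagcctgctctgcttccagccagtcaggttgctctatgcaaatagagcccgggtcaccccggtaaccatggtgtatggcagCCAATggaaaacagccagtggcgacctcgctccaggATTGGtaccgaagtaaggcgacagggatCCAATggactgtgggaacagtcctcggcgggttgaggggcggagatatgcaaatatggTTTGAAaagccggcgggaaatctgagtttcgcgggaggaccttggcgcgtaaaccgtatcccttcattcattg
Mcm7, chr5:138171834-138172133, minus strand: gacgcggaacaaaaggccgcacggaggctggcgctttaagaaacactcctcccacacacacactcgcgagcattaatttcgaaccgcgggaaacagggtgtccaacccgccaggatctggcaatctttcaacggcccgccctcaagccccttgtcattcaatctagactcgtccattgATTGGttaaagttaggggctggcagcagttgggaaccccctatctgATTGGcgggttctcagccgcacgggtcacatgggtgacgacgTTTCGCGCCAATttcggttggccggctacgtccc
Mki67, chr7:135716330-135716629, minus strand: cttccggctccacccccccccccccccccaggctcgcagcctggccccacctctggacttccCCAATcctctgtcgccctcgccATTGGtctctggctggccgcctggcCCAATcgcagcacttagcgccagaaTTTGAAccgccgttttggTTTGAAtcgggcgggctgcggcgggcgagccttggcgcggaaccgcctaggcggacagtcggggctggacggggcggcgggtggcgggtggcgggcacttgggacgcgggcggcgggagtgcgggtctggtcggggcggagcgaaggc
The Cdk6 window held none of these letters. The Hmgb2 window held 2 CHR and 4 CCAAT matches, and that of Mki67, the gene of the proliferation antigen Ki-67, held 2 and 3. Cenpe, the gene of a mitotic kinesin, had 1 CCAAT box and no CHR match. In Mcm7, a subunit of the replicative helicase, the E2F match ran into 1 of its 3 CCAAT boxes. Across 27025 promoters of the same length, 0.833% held an E2F motif, 18.1% a CHR motif and 37.9% a CCAAT box. An E2F motif stood in 4 of 9 S windows (Mcm3, Mcm5, Mcm6 and Mcm7), 1 of 19 G2/M windows (Cdk1) and none of 9 G1 windows. A CHR motif stood in 14 of 19 G2/M windows, 1 of 9 S windows (Mcm2) and 1 of 9 G1 windows (E2f3). CCAAT boxes stood in 16 of 19 G2/M, 8 of 9 S and 3 of 9 G1 windows. These are matches of letters, described without a test, and a window without a match says nothing of whether a factor binds.

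The first comparison asked which cell cycle genes differed between mutants and controls, with litter and sex held in the model. Cdk6, a kinase that pairs with D cyclins in G1, fell in mutants, and it was the 1 gene called among the 44 members tested. In mutants Cdk6 stood at 114, 120.3, 123, 116, 123 and 129 CPM in libraries 1 to 6. In controls it stood at 171, 158, 127, 171, 146 and 216 CPM in libraries 1 to 6. The groups overlapped at 1 point, since mutant 6 was just above control 3, and every mutant was below the control mean. The means were 121 ± 5.60 CPM in the mutants and 165 ± 30.1 CPM in the controls (SD, n = 6 per group). The log2 fold change was -0.62 ± 0.107 (SE), with an adjusted p of 0.0173 by edgeR's quasi-likelihood test over 10678 genes. In bulk cortex, fewer cells that express Cdk6 and less Cdk6 RNA per cell cannot be told apart.

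The call rested on 75 to 445 counts per library in mutants and 224 to 470 in controls. Inside each litter every mutant was below every control, a pattern that 1.91% of all genes tested showed. The log2 fold change was -0.63 ± 0.125 in litter 2 alone (adjusted p = 0.0421) and -0.55 ± 0.209 in litter 1 alone (edgeR, adjusted p = 0.542). Litter 1 holds no male mutant, so that control 1 alone informs its genotype term beside 3 male controls. The difference of the Cdk6 effect between litters was -0.01 on the log2 scale, with an unadjusted p of 0.964 for edgeR's interaction term. Control 6 was the highest library, and without it the log2 fold change was -0.46 with an adjusted p of 0.280. The call was also lost without mutant 1 (adjusted p = 0.0770), mutant 2 (0.0696) or mutant 4 (0.0567) by the same edgeR test, at log2 fold changes of -0.60, -0.62 and -0.66.

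Markers of other cells were also compared between genotypes, and the summed ranges of each list given here overlapped. Of 9 excitatory neuron markers tested, 7 were negative and Tle4, a corepressor of deep-layer neurons named here because it was the 1 marker called, fell in mutants. Tle4 averaged 204 ± 20.9 CPM in the mutants and 424 ± 107 CPM in the controls (SD, n = 6 per group), at a log2 fold change of -0.81 (edgeR, adjusted p = 0.00961). The summed excitatory neuron markers ran from 3911 to 6821 CPM in mutants and from 5188 to 7921 CPM in controls. All 10 interneuron markers tested had a positive log2 fold change, with a median of 0.39, and so had all 7 of ganglionic eminence and striatum, with a median of 1.11. None of these 17 was called. Interneuron markers summed to 324 to 781 CPM in mutants and 250.2 to 733 CPM in controls. Those of ganglionic eminence and striatum summed to 2036 to 4315 CPM in mutants and 1725 to 4057 CPM in controls. The part of these cells in the Cdk6 value was not tested.

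Of all genes tested, 0.215% were called between genotypes, 0.0562% higher and 0.159% lower, and 0 of the other 43 members were called. Among all genes, 0.337% had every mutant above every control and 0.927% every mutant below, and 0 of 44 members had either. Of the 44 members, 21 had a positive and 23 a negative log2 fold change, with a median of -0.04, beside 49.9% positive and a median of -0.000885 over all genes. By phase, 7 of 12 G1 genes, 8 of 10 S genes and 6 of 22 G2/M genes were positive, with medians of 0.11, 0.04 and -0.06. Before adjustment edgeR put 1 member beside Cdk6 under 0.05. Mcm4, a helicase subunit, had a log2 fold change of 0.49 ± 0.183 (edgeR, adjusted p = 0.375). Over all genes 3.71% were higher and 5.07% lower at that level. Ccne1, the cyclin E1 gene, had 97 counts over the 12 libraries and was too low to test.

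Cdk4, the other kinase of D cyclins, was not called. Cdk4 stood at 112, 99.0, 95.3, 88.6, 87.3 and 92.9 CPM in mutants 1 to 6. In controls 1 to 6 it stood at 82.3, 60.8, 54.2, 69.5, 77.5 and 102 CPM. All 6 mutants were above the control mean, and control 6 reached into the mutant range. Cdk4 averaged 95.9 ± 9.15 CPM in the mutants and 74.4 ± 17.1 CPM in the controls (SD, n = 6 per group), but in the model with litter and sex its log2 fold change was 0.14 ± 0.128 (edgeR, adjusted p = 0.848). In litter 2 the means were 91.0 CPM in the mutants and 89.8 CPM in the controls, and in litter 1 they were 106 CPM in the mutants and 66.7 CPM in the controls.

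Of the D cyclins, Ccnd2 was the most abundant and none was called. Ccnd2 stood at 397, 382, 529, 302, 481 and 499.97 CPM in mutants 1 to 6. In controls 1 to 6 it stood at 280.5, 306, 244, 244, 466 and 343 CPM. Mutant 4 was below control 2, and controls 5 and 6, both of litter 2, were the highest controls, so the groups overlapped. The log2 fold change of Ccnd2 was 0.23 ± 0.163 (edgeR, adjusted p = 0.772). Ccnd1, the cyclin D1 gene, stood at 39.5, 26.6, 21.04, 20.5, 27.0 and 41.8 CPM in mutants 1 to 6. In controls 1 to 6 Ccnd1 stood at 16.3, 13.4, 11.7, 13.1, 23.7 and 30.4 CPM. Every mutant was above the control mean, while both controls of litter 2 were inside the mutant range, and the log2 fold change was 0.26 ± 0.258 (edgeR, adjusted p = 0.859). Ccnd3, the least abundant of the 3, ran from 7.43 to 19.8 CPM in mutants (median 14.0) and from 10.99 to 16.8 CPM in controls (median 12.6), at a log2 fold change of 0.14 ± 0.248 (edgeR, adjusted p = 0.953).

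**Figure D1:**
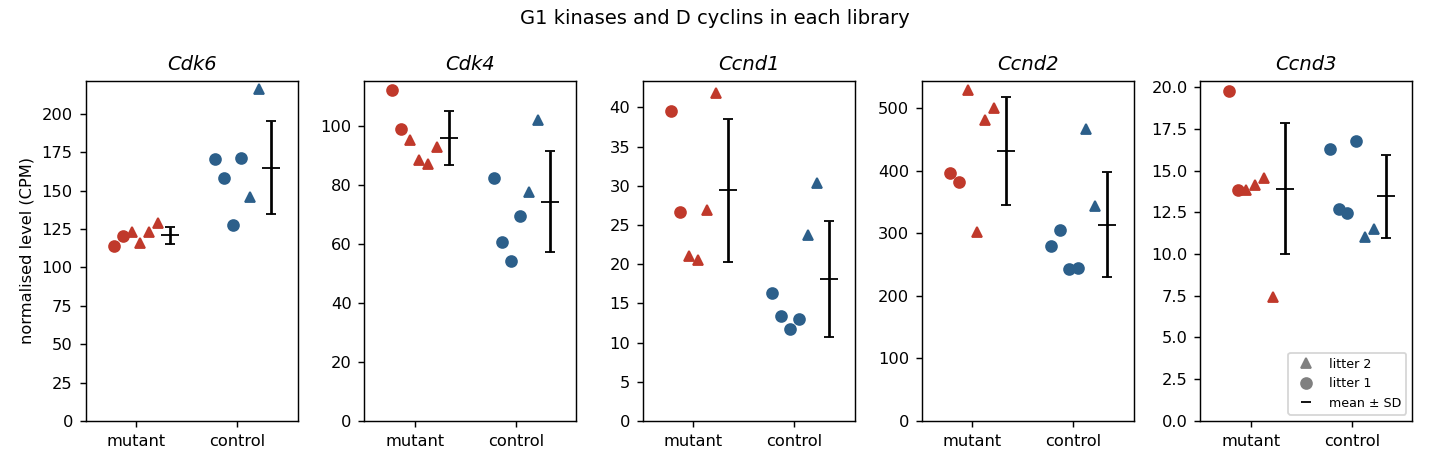
Level of 5 G1 genes in each library, in CPM, with mutants left of controls; triangles are litter 2, circles litter 1, and bars are the mean ± SD of 6 libraries. Cdk6 lies at 114 to 129 CPM in mutants and 127 to 216 CPM in controls, while Cdk4 lies at 87.3 to 112 CPM in mutants and 54.2 to 102 CPM in controls.

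The balance of Cdk6 to Cdk4 and to Ccnd2 was read as a log2 ratio within each library, which does not depend on how libraries are scaled. For Cdk6 over Cdk4 the ratio was 0.02, 0.28, 0.37, 0.38, 0.50 and 0.48 in mutants 1 to 6. In controls 1 to 6 it was 1.05, 1.38, 1.23, 1.30, 0.91 and 1.08. Every mutant was below every control. The mean was 0.34 ± 0.174 in the mutants and 1.16 ± 0.176 in the controls (SD, n = 6 per group), a difference of -0.82 (two-sided exact permutation test over 924 arrangements, p = 0.00216, adjusted over 3 ratios 0.00649). That p is the smallest the design allows. An exact permutation test within litters gave p = 0.00444, the smallest that 225 arrangements allow, adjusted to 0.0133. The difference was -0.56 in litter 2 and -1.09 in litter 1, and whether these 2 differ was not tested for the ratio. The ratio carries no term for sex, and the part of sex in it was not tested: the 1 male mutant had 0.38 and the 2 female controls 1.05 and 1.08.

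Against Ccnd2 the log2 ratio of Cdk6 was also lower, at -1.81 ± 0.257 in the mutants and -0.91 ± 0.412 in the controls (SD, n = 6 per group). The difference was -0.90 (two-sided exact permutation p = 0.00649, adjusted 0.00974), and within litters p was 0.00889, adjusted to 0.0133. The groups overlapped through control 5, at -1.68, among mutants from -2.10 to -1.38. Without control 5 the difference was -1.06 and the groups did not overlap. The ratio of the D cyclins to each other, Ccnd2 over Ccnd1, was 3.91 ± 0.461 in mutants and 4.17 ± 0.356 in controls, a difference of -0.26 that did not pass the test (exact permutation p = 0.290). In litter 2 that difference was 0.17 and in litter 1 it was -0.72.

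**Figure D2:**
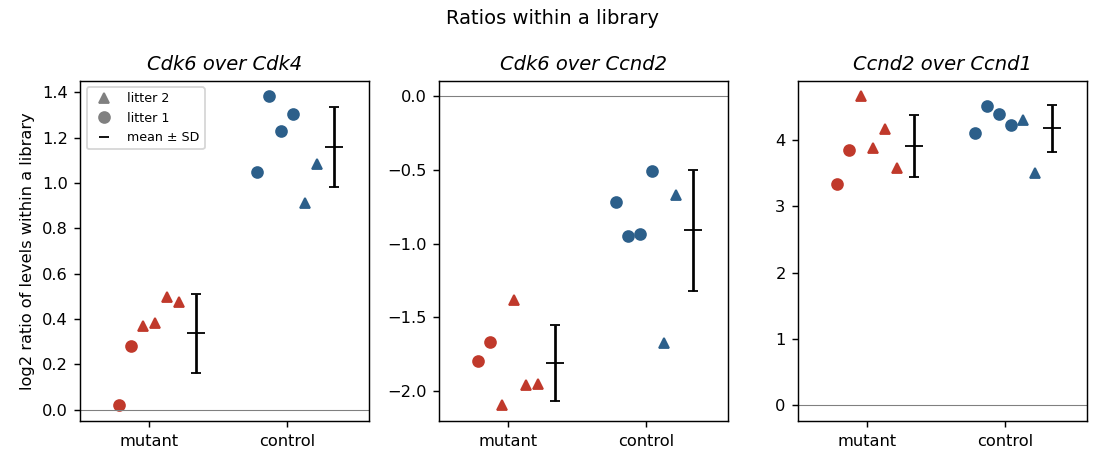
Log2 ratio of 2 gene levels in each library for 3 pairs, with mutants left of controls; triangles are litter 2, circles litter 1, and bars are the mean ± SD of 6 libraries. Cdk6 over Cdk4 lies at 0.02 to 0.50 in mutants and 0.91 to 1.38 in controls, and Cdk6 over Ccnd2 overlaps through control 5 at -1.68.

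Levels of Cdk6 and Cdk4 can be compared with each other only per length. Cdk6 spans 189.524 kb and Cdk4 4.387 kb, and introns may be in the counts. Per kb of exon, the mean level over 12 libraries was 10.2 CPM for Cdk6 and 26.2 CPM for Cdk4. Per kb of span it was 0.754 CPM for Cdk6 and 19.4 CPM for Cdk4. By either length Cdk4 had the higher level, and a log2 ratio above 0 before dividing by length does not mean more Cdk6 transcripts. By exon length, Ccnd2 was the highest member at 39.6 CPM per kb, with Ccnd1 at 5.04 and Ccnd3 at 1.56 CPM per kb. By span, Ccnd2 was at 13.8 CPM per kb, below Cdk4 and below Cdkn1b at 15.5 CPM per kb. Ccnd1 was at 2.38 and Ccnd3 at 0.145 CPM per kb of span.

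None of the other G1 genes was called between genotypes. Rb1, the retinoblastoma gene and the most even member, ran from 142 to 173 CPM in mutants (median 154) and from 134 to 171 CPM in controls (median 146). Its coefficient of variation over the 12 libraries was 8.30%, against 41.6% for Ccnd1, and its log2 fold change was 0.08 ± 0.104 (edgeR, adjusted p = 0.912). Cdkn1b, the gene of the kinase inhibitor p27, averaged 75.03 ± 14.0 CPM in the mutants and 83.9 ± 8.83 CPM in the controls (SD, n = 6 per group), at -0.20 ± 0.122 (edgeR, adjusted p = 0.715). Cdkn2c, the gene of the Cdk4 and Cdk6 inhibitor p18, averaged 7.63 ± 2.38 CPM in the mutants and 7.32 ± 2.68 CPM in the controls (SD, n = 6 per group), and was not called. Cdk2, Ccne2 and E2f1 had log2 fold changes between -0.23 and 0.31 and none was called.

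Among the S genes, the 2 most abundant were Rrm1, the large subunit of ribonucleotide reductase, and Mcm7. Rrm1 ran from 32.1 to 76.6 CPM in mutants (median 61.9) and from 30.4 to 63.9 CPM in controls (median 40.5), at a log2 fold change of 0.11 ± 0.211 (edgeR, adjusted p = 0.961). Mcm7 ran from 46.2 to 60.8 CPM in mutants (median 52.8) and from 31.8 to 50.3 CPM in controls (median 42.5), at 0.27 ± 0.151 (edgeR, adjusted p = 0.669). All 6 mutants had more Mcm7 than the control mean, yet the ranges overlapped. Mcm4 stood at 36.5, 34.1, 28.8, 29.5, 27.0 and 25.1 CPM in mutants 1 to 6, and at 25.9, 15.5, 23.7, 22.8, 23.1 and 18.9 CPM in controls 1 to 6. Only mutant 6 fell inside the control range of Mcm4, by a margin of less than 1 CPM. Inside each litter all mutants were above all controls for Mcm4, a pattern that 1.00% of all genes tested showed. The adjusted p of 0.375 leaves it uncalled.

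Among the G2/M genes, Mki67 and Top2a, the gene of a topoisomerase of dividing cells, were the most abundant. Mki67 stood at 211, 214, 219, 135, 228 and 307 CPM in mutants 1 to 6. In controls 1 to 6 it stood at 157, 84.1, 177, 193, 261 and 406 CPM. The controls of Mki67 spanned the whole mutant range, and its log2 fold change was -0.41 ± 0.290 (edgeR, adjusted p = 0.791). Top2a ran from 66.8 to 154 CPM in mutants (median 138) and from 89.7 to 164 CPM in controls (median 106), at -0.24 ± 0.148 (edgeR, adjusted p = 0.710). The widest log2 fold change was that of Ube2c, a ubiquitin-conjugating enzyme of the anaphase-promoting complex, at -1.04 ± 0.497 (edgeR, adjusted p = 0.598). Control 6 stood at 43.7 CPM, the other controls at 2.83 to 12.7 CPM and the mutants at 1.28 to 22.3 CPM, and without control 6 the log2 fold change of Ube2c was 0.26 (edgeR, adjusted p = 0.971).

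**Figure D3:**
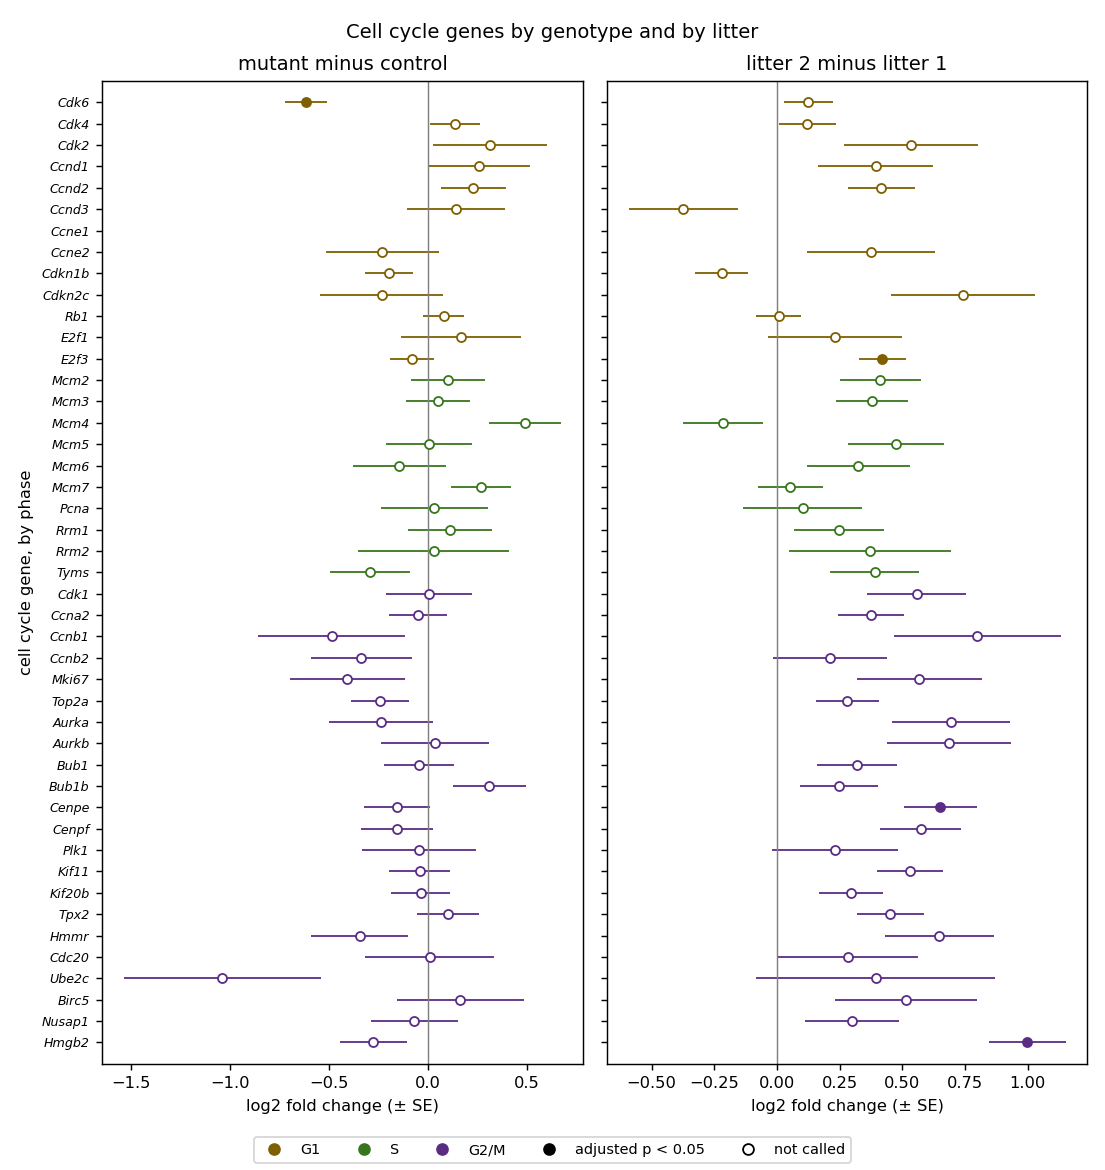
Log2 fold change ± SE of the 44 genes tested, mutant minus control on the left and litter 2 minus litter 1 on the right, ordered by phase; filled points have an adjusted p under 0.05. On the left 1 point is filled (Cdk6) and 21 of 44 lie above 0, and on the right 3 are filled (E2f3, Cenpe and Hmgb2) and 41 of 44 lie above 0.

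The sign of the uncalled genes depended on the litter and on the terms of the model. Without litter and sex terms, 37 of 44 members were positive with a median log2 fold change of 0.27, and without the sex term 30 were positive with a median of 0.14. In litter 2 alone 12 of 45 were positive with a median of -0.18, and Cdk6, Mki67 and Ube2c were called lower (edgeR adjusted p = 0.0421, 0.0368 and 0.0129). That litter has 2 controls, and control 6 held the highest level of all 12 libraries for each of the 3. Over all 11154 genes of that fit, 23 were called higher and 41 lower, with a median of 0.00185. In litter 1 alone 36 of 44 members were positive with a median of 0.26, and none was called. In litter 1, both mutants were above all 4 controls in 22 of 44 members, against 14.0% of all genes tested. In the same litter 1 member, Cdk6, had both mutants below all controls, against 12.8% of all genes. In litter 2 all 4 mutants were above both controls in 1 member (Mcm4), against 7.44% of genes. They were below both in 5 (Cdk6, Ccne2, Cdkn1b, Mcm6 and Tyms), against 8.83% of genes. Both mutants of litter 1 are female and 3 of its 4 controls male, and the part of sex in that count was not tested within the litter. The litters also differ in how many libraries stand in each comparison, so these shares are read only against the background of the same litter.

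The interaction of litter and genotype was called for 0 of 10678 genes and 0 of 44 members by edgeR. Of the members, 37 had a negative interaction, meaning a lower mutant-control difference in litter 2 than in litter 1, with a median of -0.41. Over all genes 50.7% were negative, with a median of -0.00714. At an unadjusted p under 0.05 there were 7 members, all negative (Cdk4, Ccnd1, Mcm6, Rrm1, Top2a, Tpx2 and Cdc20), beside 3.92% of all genes negative and 3.34% positive at that level. Mcm6, a helicase subunit, had the smallest p of them (unadjusted p = 0.0025, edgeR adjusted p = 0.504). It stood at 38.8, 17.98, 37.3 and 28.8 CPM in the mutants of litter 2, below both controls at 41.7 and 47.4 CPM. In litter 1 it stood at 47.1 and 38.3 CPM in mutants, above all 4 controls at 23.8, 21.2, 26.7 and 23.2 CPM. Mcm6 was the 1 member with this crossing, which 0.890% of all genes tested showed, and 0 members showed the opposite one, against 0.665% of genes.

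The second comparison set litter 2 against litter 1, with genotype and sex in the model. Hmgb2, Cenpe and E2f3 were higher in litter 2 and no member was called lower. Litter called 1.31% of all genes tested, 0.693% higher and 0.618% lower, against 3 of 44 members higher. Every library of litter 2 was above every library of litter 1 in 0.899% of all genes and below in 0.759%, and in 0 of 44 members. Of the members, 41 of 44 had a positive log2 fold change with a median of 0.38, beside 49.1% positive and a median of -0.01 over all genes. The medians were 0.30 for G1, 0.35 for S and 0.48 for G2/M genes, and all 22 G2/M genes were positive. At an unadjusted p under 0.05, 21 members were higher and 0 lower, while 7.8% of all genes were higher and 7.57% lower. The 3 negative genes were Ccnd3 (-0.37), Cdkn1b (-0.22) and Mcm4 (-0.22), none of them called. The members' median differed between the genotypes when each was fitted alone, in fits that held no sex term. In controls alone 41 of 45 members were positive with a median of 0.64, and 4 were called higher (Cenpe, Hmgb2, Mcm6 and Tpx2). Over all 11492 genes of that fit, 39 were called higher and 75 lower. In mutants alone 25 of 42 members were positive with a median of 0.06, and none was called. The median over all genes was -0.00312 in controls alone and -0.01 in mutants alone. The interaction of litter and genotype, from a fit that keeps the sex term, was called for no member. The part of sex in the members' medians was not tested. Beyond the mix of genotype and sex the labels name no difference between the litters, so developmental timing, dissection and handling of a litter cannot be told apart.

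Markers of other cells were called between litters too, and those named here were chosen for their calls. The excitatory neuron genes Bcl11b, Sox5 and Tbr1 rose in litter 2, which is 3 of 9 tested, at log2 fold changes of 0.68, 0.79 and 0.74 (edgeR, adjusted p = 0.0280, 0.0123 and 0.00125). Tbr1 averaged 265 ± 44.9 CPM in litter 2 and 168 ± 14.2 CPM in litter 1 (SD, n = 6 per litter). Of the 9, 5 were positive and 4 negative, and their sum ran from 4875 to 7306 CPM in litter 2 and from 3911 to 7921 CPM in litter 1. All 3 red blood cell genes tested were negative, and the globin genes Hba-a2 and Hbb-bs fell in litter 2, at -1.92 and -1.87 (edgeR, adjusted p = 0.0139 and 0.0443). Red blood cell genes summed to 8.68 to 34.4 CPM in litter 2 and 20.9 to 63.1 CPM in litter 1. Slco1c1, a transporter gene of brain endothelium, fell by 1.80 on the log2 scale (edgeR, adjusted p = 0.00406), the 1 of 6 endothelial markers called. Of the 6, 3 were positive and 3 negative, with a median of 0.05. Endothelial markers summed to 70.6 to 101 CPM in litter 2 and 94.9 to 114 CPM in litter 1. The part of these cells in the litter values was not tested.

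Hmgb2, a chromatin protein gene expressed in dividing progenitors, had the largest log2 fold change between litters among the 44 members tested. In litter 2 it stood at 59.0, 29.5, 51.0 and 61.3 CPM in mutants 3 to 6 and at 54.4 and 69.0 CPM in controls 5 and 6. In litter 1 it stood at 25.8 and 34.1 CPM in mutants 1 and 2 and at 25.5, 23.3, 27.1 and 29.5 CPM in controls 1 to 4. Mutant 4 was the 1 library of litter 2 inside the range of litter 1. Hmgb2 averaged 54.0 ± 13.5 CPM in litter 2 and 27.6 ± 3.78 CPM in litter 1 (SD, n = 6 per litter), which is 1.00 ± 0.153 on the log2 scale (edgeR, adjusted p = 0.00406). Among controls alone it was 1.21 (adjusted p = 0.0127) and among mutants alone 0.77 (edgeR, adjusted p = 0.374). Neither of those fits held a sex term.

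Cenpe stood at 56.5, 44.9, 51.4 and 79.9 CPM in the mutants and 65.4 and 66.7 CPM in the controls of litter 2. In litter 1 Cenpe stood at 33.4 and 46.8 CPM in mutants and 37.6, 32.5, 41.8 and 41.4 CPM in controls. The litters overlapped through mutants 4 and 2 alone. The log2 fold change was 0.65 ± 0.146 (edgeR, adjusted p = 0.0319), with 0.77 among controls (adjusted p = 0.0406) and 0.50 among mutants (adjusted p = 0.556). E2f3, an activating E2F gene, stood at 149, 113, 149.9 and 133 CPM in the mutants and 162 and 144 CPM in the controls of litter 2. In litter 1 E2f3 stood at 117 and 118 CPM in mutants and 112, 107, 92.3 and 97.5 CPM in controls. Again mutant 4 alone reached into the range of litter 1. The log2 fold change of E2f3 was 0.42 ± 0.0953 (edgeR, adjusted p = 0.0336), with 0.58 among controls (adjusted p = 0.0527) and 0.24 among mutants (adjusted p = 0.668). For Cenpe and E2f3 too, the fits of controls or mutants alone held no sex term. Leaving out mutant 1 or control 1, 3, 5 or 6 ended the call of Cenpe, at log2 fold changes of 0.59 to 0.68 (edgeR, adjusted p from 0.0518 to 0.189). For E2f3 the same 5 libraries and mutants 3 and 5 each did so, at 0.29 to 0.48 (edgeR, adjusted p from 0.0542 to 0.249).

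**Figure D4:**
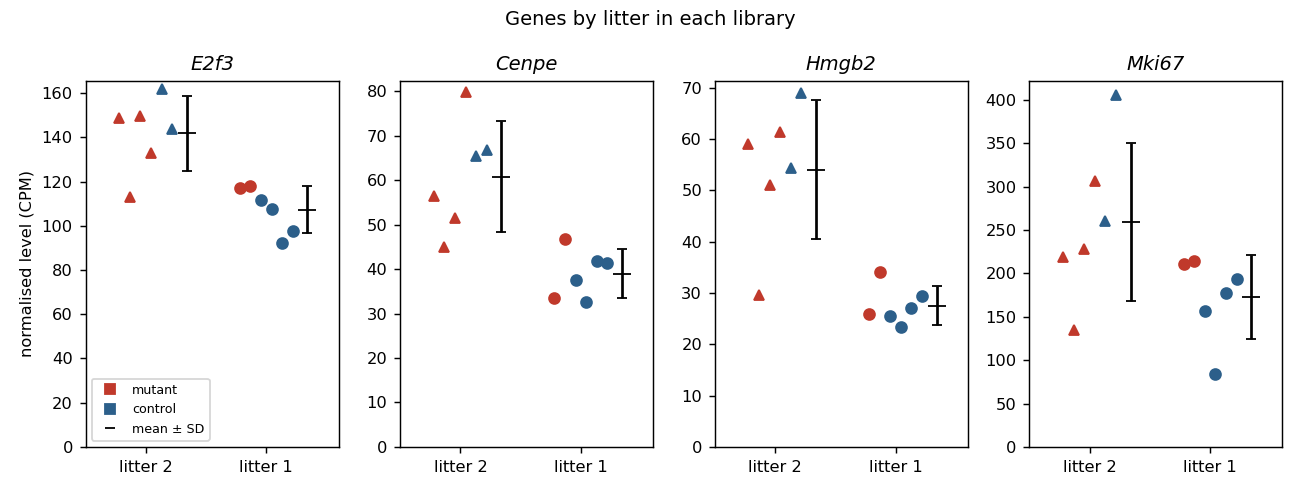
Level of 4 genes in each library, in CPM, with litter 2 left of litter 1; red are mutants, blue controls, and bars are the mean ± SD of 6 libraries. Hmgb2 lies at 29.5 to 69.0 CPM in litter 2 and 23.3 to 34.1 CPM in litter 1, and Mki67, which was not called, at 135 to 406 CPM in litter 2 and 84.1 to 214 CPM in litter 1.

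Neither kinase of D cyclins was called between litters. Cdk6 differed between litters by 0.13 ± 0.0961 (edgeR, adjusted p = 0.575) and Cdk4 by 0.12 ± 0.113 (edgeR, adjusted p = 0.667). Ccnd2 was 0.42 ± 0.133 higher in litter 2 without passing the test (edgeR, adjusted p = 0.145). Of the mitotic genes that stayed uncalled, Kif11, a spindle kinesin, came nearest at 0.53 ± 0.133 (edgeR, adjusted p = 0.0603). Mki67 was at 0.57 ± 0.249 (edgeR, adjusted p = 0.319) and Top2a at 0.28 ± 0.125 (edgeR, adjusted p = 0.293).

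A wider list of 103 cell cycle genes outside the 45 was counted in the same fits, and 90 could be tested. Between genotypes 0 of 90 were called by edgeR, beside 0.215% of all genes tested. Rpa1, a replication protein gene, was the 1 with an unadjusted edgeR p under 0.05. It was lower, as were 5.07% of all genes at that level. Between litters 3 were higher and 0 lower: E2f2, an activating E2F gene, Clspn, the replication checkpoint gene claspin, and Anln, the cytokinesis gene anillin. Over all genes tested, 0.693% were called higher and 0.618% lower. Both E2f2 and Mybl2, the B-Myb gene, had larger log2 fold changes than Hmgb2, and Mybl2 was not called at 1.01 (edgeR, adjusted p = 0.0697). E2f2 averaged 15.2 ± 2.59 CPM in litter 2 and 5.08 ± 2.05 CPM in litter 1 (SD, n = 6 per litter), with no overlap, at a log2 fold change of 1.65 (edgeR, adjusted p = 0.00499). Such a separation, with litter 2 above, was shown by 0.899% of all genes tested. Clspn was at 0.86 (adjusted p = 0.0229) and Anln at 0.74 (edgeR, adjusted p = 0.0345). Positive between litters were 18 of 23 other G1 genes and regulators, 26 of 30 other S genes and 32 of 37 other G2/M genes. The share over all genes tested was 49.1%.

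Sex was a covariate that lay across both comparisons, with 5 of 6 mutants and 2 of 6 controls female. No member was called between females and males, where 0.00937% of all genes were called. The filter on low counts was set on genotype groups of 6, so genes found only in the 5 males could not pass it. Of the members, 41 of 44 were positive, meaning higher in females, with a median of 0.36, beside 50.8% positive and a median of 0.00415 over all genes. At an unadjusted p under 0.05 there were 13 members, all positive, while 3.56% of all genes were higher and 3.39% lower in females. Top2a was 0.59 higher in females (edgeR, adjusted p = 0.607) and Cdk4 0.37 higher (edgeR, adjusted p = 0.677). Cdk6, also among the 13, was 0.26 higher in females (edgeR, adjusted p = 0.711). The 5 males are controls 2 to 4 of litter 1, and control 5 and mutant 4 of litter 2, so the sex term rests on control 1 against 3 males, mutant 4 against 3 females, and control 6 against control 5.

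Summed over their members, the S and G2/M genes had the same libraries at the bottom. In litter 2 the G2/M sum was 1157, 674, 1089 and 1282 CPM in mutants 3 to 6 and 1152 and 1396 CPM in controls 5 and 6. In litter 1 it was 925 and 1014 CPM in mutants 1 and 2 and 795, 604, 732 and 721 CPM in controls 1 to 4. Mutant 4 and control 2 were the lowest of their genotypes in both sums. The S sum was 390.1, 229, 362 and 395 CPM in mutants and 355 and 368 CPM in controls of litter 2, and 356 and 402 CPM in mutants and 263, 226, 248 and 234 CPM in controls of litter 1. The G1 sum, led by Ccnd2, Rb1 and Cdk6, moved less, from 913 to 1223 CPM in mutants and from 825 to 1170 CPM in controls.

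**Figure D5:**
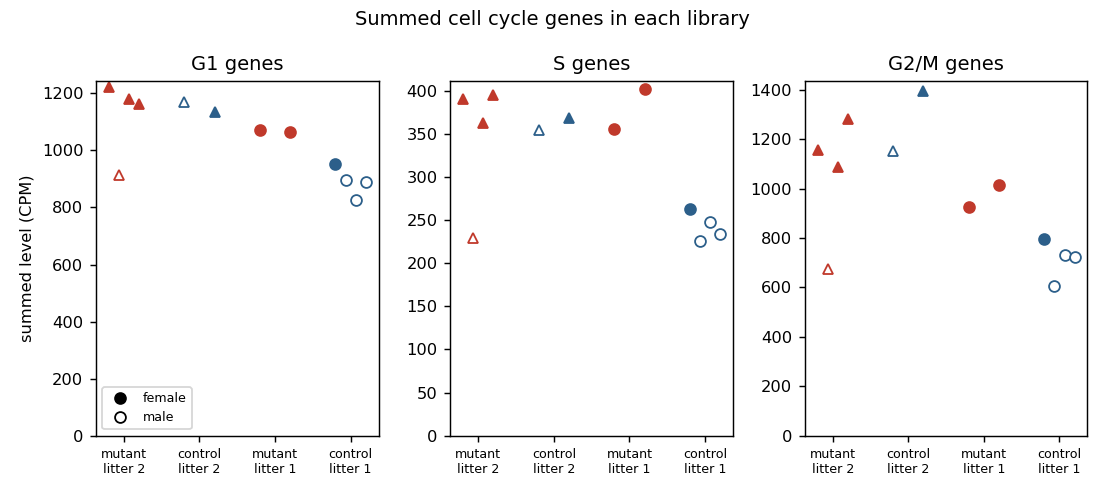
Summed level of the 13 G1, 10 S and 22 G2/M genes in each library, in CPM, by genotype and litter; filled points are female, open points male, triangles litter 2 and circles litter 1. The 4 controls of litter 1 and mutant 4 have the 5 lowest S sums, at 226 to 263 CPM, and the other 7 libraries lie at 355 to 402 CPM.

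Markers of the dividing cells followed these sums in some libraries and not in others. The summed radial glia markers were lowest in control 2 at 554 CPM, mutant 4 at 658 CPM and controls 4 and 3 at 713 and 727 CPM, and the other libraries lay at 783 to 976 CPM. Control 1, with the fifth lowest S and G2/M sums, had 899 CPM of radial glia markers, behind only mutants 2 and 1 at 976 and 936 CPM. Intermediate progenitor markers summed to 511 to 674 CPM in mutants and 401 to 599.9 CPM in controls. Their part in the litter and genotype values of the cell cycle genes was not tested. No radial glia marker of 9 and no intermediate progenitor marker of 7 was called between genotypes or litters.

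Over the 12 libraries Mki67 varied with Top2a, also of G2/M, and with Mcm6 of S phase. On log2 CPM, Mki67 with Top2a had r = 0.762 (permutation p = 0.00318, adjusted over 4 pairs 0.00942) and rho = 0.853 (permutation p = 0.00069, adjusted 0.00276). Mki67 with Mcm6 had r = 0.733 (permutation p = 0.00471, adjusted 0.00942) and rho = 0.776 (permutation p = 0.00458, adjusted 0.00916). Without the 2 libraries farthest from the median of Mki67, controls 2 and 6, r was 0.787 and 0.653. In litter 2 r was 0.852 for Top2a and 0.778 for Mcm6, and in litter 1 it was 0.568 and 0.667. In the 6 mutants r was 0.846 for Top2a and 0.533 for Mcm6, and in the 6 controls 0.814 and 0.885. By exact permutation, Mki67 with Top2a did not pass in mutants (p = 0.142), litter 1 (p = 0.147) or litter 2 (p = 0.0556). In controls this pair had an exact permutation p of 0.0333. Mki67 with Mcm6 had exact permutation p = 0.114 in litter 2, 0.0222 in litter 1 and 0.0111 in controls, none of these adjusted. By rank Mki67 and Mcm6 did not go together in mutants, at rho = -0.0857, against 0.829 in controls, and r in mutants did not pass (exact permutation p = 0.331). Mcm4 with Mcm6, 2 subunits of 1 helicase, did not pass, at r = 0.281 (permutation p = 0.375) and rho = 0.168 (permutation p = 0.602). Its r was -0.654 in litter 2 and 0.891 in litter 1, and -0.212 without control 2 and mutant 1. For Cdk6 with Cdk4 the genotypes lay apart, so no pooled value is given: r was -0.476 in the 6 mutants (exact permutation p = 0.339) and 0.844 in the 6 controls (exact permutation p = 0.0444, neither adjusted). Libraries share depth, litter and cell makeup, so these values describe how the 12 libraries are laid out.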

How the data were processed

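RNA was taken from dissected cortices with Trizol, treated with DNase and depleted of ribosomal RNA, and libraries were made by ClickSeq with a random molecular tag, per the labels' protocols. The authors used the build mm10, STAR 2.5.2a, HTSeq 0.6.1p1, UMI-tools 0.5.3, edgeR 3.20.9, bcl2fastq 2.17 and cutadapt 1.13, per the submitters' processing notes. Not given in the sources used here are their order, the annotation, the counting mode and the handling of strands. The deposited values are raw counts per gene, 1 file per library, with no normalization by the authors. How far tags were collapsed is unknown, and a single library may vary by more than its counting error. The 5 closing entries that name no gene held 20.7 to 31.6% of a file's total and were left out. Reads that map to several places are among them, so genes with close copies, such as Pcna, Ccnb1 and Tyms with annotated pseudogenes, may be undercounted.

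Gene symbols, spans and exon lengths came from GENCODE M21 on GRCm38, the assembly of mm10, and promoters from RefSeq. filterByExpr with a minimum count of 10 kept 10678 genes. After TMM scaling, edgeR 4.0.16 under R 4.3.3 fitted litter, sex and genotype (8 residual degrees of freedom, robust glmQLFit, glmQLFTest). A gene was called where its p, adjusted by Benjamini-Hochberg over all genes tested, was under 0.05, and the SE is the log2 fold change divided by the square root of F. CPM are scaled by the TMM library sizes. The interaction fit added litter by genotype. Ratios were tested by two-sided exact permutation, and relations by 100000 permutations, or exactly within groups of 6. The fits were tested on simulated data. Whether libraries are separate embryos is not stated, so p-values measure the spread between these libraries. Alternatives were RLE scaling, DESeq2 1.42.0, limma-voom 3.58.1, no filter, other model terms, thinning to equal depth, single litters or groups, and leaving out libraries. Fits of a single genotype held litter as their only term. The removal of a trend on gene span was chosen after seeing the data. Members, gene lists and named genes (Arid1a, the members, and pathway genes called; markers named for their calls and Mybl2 for its size were chosen after their values were seen) were chosen with earlier results of these data known. Library numbers within a genotype follow the order of deposit and pair no samples.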

Additional observations from a re-analysis of the deposited data

Results flagged for a closer look

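Of 96 sets of values, each a gene or log2 ratio over the 6 libraries of 1 genotype, 5 held a library whose gap to its neighbour was a larger share of the whole range than Dixon's limit for 6 samples. Chance flags about 1 in 20 such groups, close to the 5 of 96 here. In 4 of them the library was mutant 4, the male mutant and the second shallowest library. Its level was 7.71 CPM for Pcna, the sliding clamp of replication, where the other mutants lay at 24.3 to 33.0 CPM. Rrm2, the small subunit of ribonucleotide reductase, was at 2.57 CPM in mutant 4 and at 21.3 to 29.7 CPM in the other mutants. Top2a was at 66.8 CPM in mutant 4 and at 125 to 154 CPM in the others. Bub1b, a spindle checkpoint gene, was at 28.3 CPM in mutant 4 and at 46.8 to 57.7 CPM in the others. The value for Rrm2 rests on 2 counts and that for Pcna on 6. The fifth was control 6, with Ube2c at 43.7 CPM, where the other controls lay at 2.83 to 12.7 CPM. The part of depth, sex and tissue in these values was not tested.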

How the results depend on the processing

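Over 26 alternatives, Cdk6 kept its direction in all and its call in 20, with log2 fold changes from -0.69 to -0.44 (edgeR, DESeq2 or limma). It lost the call in litter 1 alone (-0.55, adjusted p = 0.542), without the 2 shallowest libraries, mutants 1 and 4 (-0.66, adjusted p = 0.148), and in 4 of the 12 fits that left out 1 library, which ranged from -0.66 to -0.46. With 1 library left out, the difference in log2 Cdk6 over Cdk4 ranged from -0.87 to -0.76 and the genotypes did not overlap. Members called lower in mutants numbered 2 with no filter on low counts (Ube2c added), 3 in litter 2 alone, 0 in litter 1 alone, 0 without the 2 shallowest libraries, and 0 to 1 with 1 library left out. Members called higher in litter 2 numbered 7 with no filter, 1 at equal depth, 1 without the 2 shallowest libraries, 1 in females alone, 0 in mutants alone, and 1 to 5 with 1 library left out. With no filter, 199 of 24283 genes were called lower in mutants and 328 higher in litter 2. Hmgb2 kept its call in 23 of 24 alternatives, Cenpe in 15 and E2f3 in 12. The correlation of Mcm4 with Mcm6 turned to -0.21 without control 2 and mutant 1. No called member changed sign under the alternatives run. The cause of these changes was not tested. No paired analysis was possible because library numbers follow the order of deposit; litter is a term of the model. Depth limits Ccne1, with 97 counts in all, and genes such as Ube2c, Rrm2, Ccnb1 and Birc5, with 1 to 4 counts in their lowest library.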
